A study of Mus musculus with 6 samples.

Results

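Open chromatin was compared between day 3 and day 0 of cartilage-type differentiation in ATDC5 cells, an established mouse line of cartilage precursors (prechondrocytes) that came from a teratocarcinoma. This comparison uses 4 of the 6 ATAC-seq libraries in the series, 2 of day 0 (Day0) and 2 of day 3 (Day3). They were chosen by the day in their labels. In ATAC-seq the Tn5 transposase inserts adapters where DNA is accessible, so places with many reads mark open chromatin. The cells of all days were spotted as 10 ul droplets at 3000 cells per ul and left to attach for 24 h. They were then differentiated in DME/F12 medium with 10 mM beta-glycerophosphate (bGP) and L-ascorbate-2-phosphate. The labels do not say whether the Day0 cells had yet received these agents. Day0 is labelled as the control and Day3 as differentiation. Apart from bGP and ascorbate, which Day0 may lack, the labels name no genotype, allele or drug that differs between the groups. All libraries come from a single line, so the data describe that line only.

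Cartilage forms when mesenchymal precursors pack together, take on chondrocyte identity and lay down a matrix rich in type II collagen and aggrecan. Ascorbate is a cofactor of the enzymes that hydroxylate collagen, and beta-glycerophosphate supplies phosphate for mineral. During such a change of identity, promoters of widely used genes tend to stay open, while distal elements such as enhancers open and close more often. Genes and enhancers could not be named here, because the peak positions are those of mouse build GRCm39, for which neither gene models nor sequence were used. Regions are therefore given by position, and the labelled cell type was not checked against marker genes.

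Each library is represented by the authors' own peak list, with a fold over background for every peak. On chromosomes 1 to 19 and X the lists hold 164237 and 164579 peaks at Day0 and 177334 and 176710 at Day3. The spacing of the folds gives the pileup, the whole number of extended reads stacked at the best point of a peak. A background of 0.717 and 0.731 reads was recovered for the Day0 libraries and of 0.799 and 0.798 for the Day3 libraries. The 50000 strongest peaks of each library, ordered by fold, were used. The peak at that rank had a pileup of 28 and 29 at Day0, against 25 and 26 for the Day3 libraries. At rank 100000 the pileup was 12 in both Day0 libraries and 11 and 12 in the Day3 libraries. Over regions strong in all 4 libraries, the libraries of 1 day differed with a variance of only 0.211 (Day0) and 0.221 (Day3) of what Poisson counting gives. Libraries of different days differed with 1.17 to 1.19 of it. The cause of the low ratio was not tested. The labels call the libraries of a day independent, but libraries this alike may share more than the condition. Their spread may be technical. Each day is therefore read as no more than 1 sample measured by 2 libraries, both values are given, and no p-value is attached to a region. The word lysis stands in the peak names of Day3 and in no other list. What it refers to is not given, and if it marks a separate handling, that and the day cannot be told apart.

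The first question was how much of the strongest open chromatin was shared. Of the 50000 strongest peaks of Day0 replicate 1, 94.6% overlapped one of the 50000 strongest of Day0 replicate 2, by 1 base or more. The shares between the Day3 libraries were 94.2% and 94.5%. Between days, 82.8% to 83.0% of the Day0 peaks overlapped a strong Day3 peak, and 81.2% to 81.3% of the Day3 peaks overlapped a strong Day0 peak. The 4 pairs between days thus lie close together and below both pairs within a day. For the covered bases (Jaccard index), pairing by day was the best of the 3 ways to pair 4 libraries, with a one-sided exact permutation p of 0.333. That is the smallest p that 3 pairings allow.

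Merging the strong peaks of the 4 libraries where they overlap gave 60606 regions, which cover 45.4 megabases and have a median width of 599 bases. A region was called gained when one of the 50000 strongest peaks overlapped it in both Day3 libraries and none of the 100000 strongest did in either Day0 library. The same rule with the days exchanged gave lost regions, and a kept region held a strong peak in all 4 libraries. By these rules 427 regions were gained (0.705% of all), 412 were lost (0.68%) and 37701 were kept (62.2%). Without the gap between ranks, 6390 regions were strong in both Day3 libraries and in neither Day0 library, and 6091 were the reverse. Only 6.68% and 6.76% of these lay past rank 100000 on the other day and so count as gained or lost. Strong in 1 library alone were 1283 and 1287 regions for the Day0 libraries, and 1663 and 1582 for the Day3 libraries. Patterns with just 1 strong library of each day held 107 to 116 regions each.

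Most gained and lost regions were moderate peaks on the day they were strong. In 69.6% of the gained regions the poorer Day3 rank was past 40000, and in 77.7% of the lost regions the poorer Day0 rank was. Just 2 gained regions and 1 lost region had a rank of 20000 or better in both libraries of their day. The median pileup of the gained regions was 30 in both Day3 libraries. It was 10 and 9 at Day0, over the 324 and 326 regions with a listed peak there. For the lost regions the median pileup was 33 in both Day0 libraries and 9 in both Day3 libraries, over the 356 and 361 listed. After scaling each library by its median pileup over kept regions, 95% Poisson intervals were separate between all libraries of the 2 days in 87.8% of gained and 75.5% of lost regions. These intervals cover counting error only. The regions were also selected for a wide gap in the same values, so the separation largely follows from the rule and supports nothing further. Just inside the limit, 122 regions strong at Day3 had their better Day0 rank between 100000 and 110000, and just outside it 217 had it between 90000 and 100000. For loss these numbers were 152 and 279.

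Absence of any listed peak was rarer than weakening. No Day0 list held a peak of any strength at 77 of the 427 gained regions, while 300 were listed in both Day0 libraries. At 30 lost regions (7.28%) no Day3 list held a peak, and 335 were listed in both. A list starts at a pileup of 5, so a region without a peak may still carry a few reads. Counts by a common fold limit went another way. With a fold of 15 or more as open and under 7.5 as closed, 342 regions were gained and 1296 were lost. The fold of kept regions was also lower at Day3, with medians of 28.4 in both libraries against 32.6 and 32.9 at Day0, so whether gain or loss prevailed depends on how the libraries are scaled.

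The strongest gained region lay on chromosome 10 from 75427355 to 75427806. Its fold was 6.99 and 5.78 at Day0, then 30.0 and 32.3 at Day3, and the pileups were 11 and 9, then 53 and 57. The 95% Poisson interval of the highest Day0 pileup ran from 5.49 to 19.7 and that of the lowest Day3 pileup from 39.7 to 69.3. Both Day3 values thus stood clear of both Day0 values, as the rule demands, by 4.88 times on the mean fold. The listed peak itself spanned 114 and 223 bases at Day0, then 452 and 418 at Day3. A kept region lay 5309 bases away and another gained region 35472 bases away, measured between centres.

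The next 2 in order had no gained neighbour within 100 kb. On chromosome 8 from 73681512 to 73682300 the fold was 5.83 and 5.20 at Day0, then 28.4 and 29.5 at Day3, and the nearest kept region was 139153 bases away. On chromosome 5 from 136498018 to 136498920 it was 6.99 and 5.78, then 29.5 and 26.1, with a kept region 3323 bases away. Both were higher in each Day3 library than in each Day0 library, and they differ in how isolated they are.

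Regions 4 to 6 showed ratios of mean fold between 3.63 and 3.91. On chromosome 7 from 65860865 to 65861271 the fold was 6.41 and 7.51 at Day0, then 25.0 and 29.5 at Day3. The region on chromosome 11 from 89338135 to 89339497 is 1363 bases wide and had folds of 7.57 and 6.36, then 25.6 and 25.0. Its listed peak was 120 and 175 bases wide at Day0 and 1225 and 1363 at Day3. On chromosome 9 from 102426312 to 102426903 the folds were 6.99 and 6.36, then 24.5 and 26.1. In each of these 3 the libraries of a day lay far closer to each other than to those of the other day. The wide gap between days follows largely from how the regions were picked.

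Region 7 (chromosome 5, 121045360 to 121045816) was in no Day0 list and had a pileup of 43 in each Day3 library. Its Day3 fold of 24.5, the same in either library, compares with 8.16 and 6.51 at Day10. Region 8, on chromosome 7 from 129602742 to 129603952, had folds of 5.24 and 5.20 at Day0, then 27.8 and 24.5 at Day3. Region 9, on chromosome 16 from 24100976 to 24101441, went from 5.24 and 5.78 to 24.5 and 25.0, and stood at 40.8 and 42.3 at Day10. Region 10, on chromosome 15 from 86142288 to 86142953, had 5.83 and 6.36, then 27.2 and 24.5. A second gained region lay 1456 bases from it. In all 10 regions the 2 days did not overlap, as the rule demands. At Day10 both folds were above both Day3 folds in 4 of the 10, below them in 4 and overlapping in 2. Higher were regions 3 (36.0 and 34.9), 4 (36.0 and 35.3), 9 and 10 (33.1 and 38.1). Lower were regions 2 (14.4 and 13.01), 5 (21.6 and 24.6), 6 (18.2 and 19.99) and 7. The Day10 folds were not scaled to those of Day3. By rank, region 1, whose folds overlap, was better in both Day10 libraries (12491 and 12200) than in both Day3 libraries (16908 and 14522). The others fell the same way by rank as by fold.

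**Figure D1:**
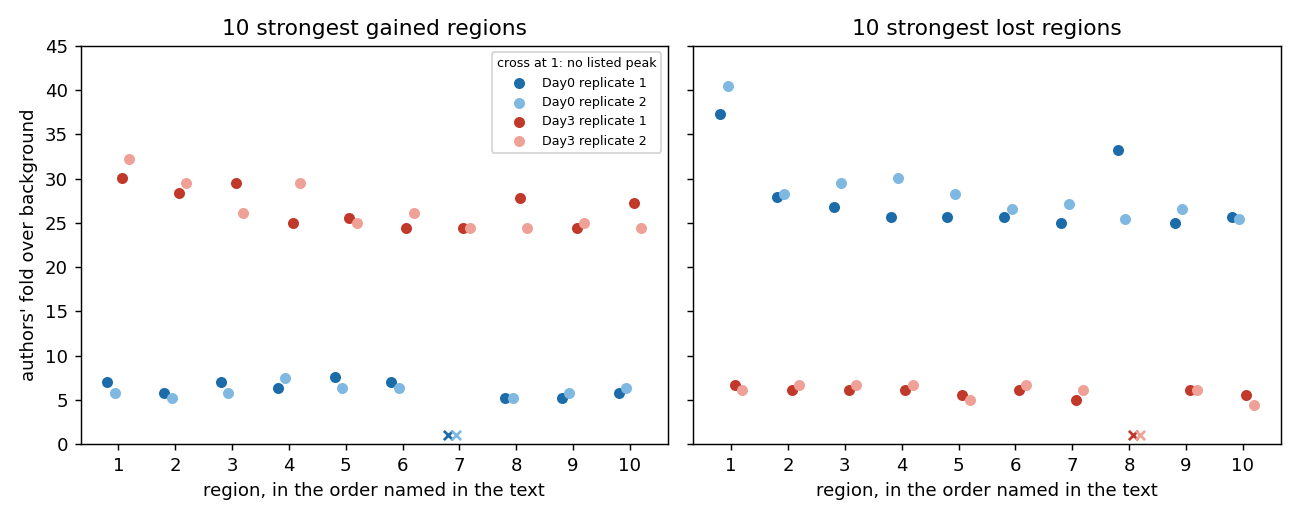
The authors' fold over background (vertical axis) in each of the 4 libraries for the 10 strongest gained regions (left) and the 10 strongest lost regions (right), in the order named in the text. Points are single libraries and a cross at 1 marks a library with no listed peak. The Day3 points of the gained regions lie between 24.5 and 32.3, above every Day0 point, and the Day0 points of the lost regions between 25.1 and 40.4, above every Day3 point.

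The strongest lost region lay on chromosome 4 from 47200097 to 47200686. Its fold was 37.3 and 40.4 at Day0, then 6.67 and 6.12, and the pileups were 63 and 69, then 11 and 10. This is a mean fold 6.08 times higher at Day0, the largest ratio among the named lost regions with a listed peak on both days. The lowest Day0 pileup has a 95% Poisson interval from 48.4 to 80.6, and the highest Day3 pileup one from 5.49 to 19.7. By Day10 no library listed a peak there.

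Lost region 2, on chromosome 9 from 57557758 to 57558103, had folds of 28.0 and 28.3, then 6.12 and 6.67, and no Day10 list held it. Lost region 3, on chromosome 16 from 25286769 to 25287137, had 26.8 and 29.5, then 6.12 and 6.67. Lost region 4, on chromosome 5 from 35819326 to 35820307, had 25.6 and 30.0, then 6.12 and 6.67. These 3 are alike in size of change, at 4.35 to 4.40 times on the mean fold.

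Lost region 5, on chromosome 7 from 80437809 to 80438227, had folds of 25.6 and 28.3 at Day0, then 5.56 and 5.00 at Day3. Lost region 6, on chromosome 10 from 83172181 to 83172588, had 25.6 and 26.6, then 6.12 and 6.67, and stood at 14.9 and 15.8 at Day10. Lost region 7, on chromosome 3 from 19236565 to 19236905, had 25.1 and 27.2, then 5.00 and 6.12. Regions 5 and 6 lay 1183 and 1067 bases from a kept region, between centres, and region 7 lay 5465 bases from one.

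Lost region 8, on chromosome 5 from 111019741 to 111020192, was the only one of the 10 with no listed peak at Day3. Its Day0 values, 33.2 and 25.4, differed more between the libraries than in the other 9. Lost region 9, on chromosome 4 from 133961987 to 133962502, had folds of 25.1 and 26.6, then 6.12 in both Day3 libraries. Lost region 10, on chromosome 9 from 25501992 to 25502452, had 25.6 and 25.4, then 5.56 and 4.45. Again the days did not overlap in any of the 10, which the rule demands. At Day10 regions 1 and 2 were in neither list and region 10 in 1 list. Apart from region 6, the listed Day10 folds were 3.72 to 10.2.

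Gained regions were wider than lost ones. Their median width was 457 bases, with the central 80% between 281 and 746, against 360 bases (261 to 520) for lost regions and 790 (427 to 1615) for kept ones. Wider than 1000 bases were 2.11% of the gained, 0.485% of the lost and 33.9% of the kept regions. Width and strength go together in these lists, and peaks were wider at Day3 in general, as described below. The part of either in this difference was not tested.

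Lost regions also lay nearer to kept ones. The median distance between centres to the nearest kept region was 14815 bases for gained regions, 7576 for lost and 9085 for kept regions. Within 10 kb of a kept region lay 37.0% of the gained, 56.8% of the lost and 52.7% of the kept regions. Gained regions stood near each other more often than near lost ones. Of the 427, 65 (15.2%) had another gained region within 100 kb and 20 (4.68%) had a lost region that near. Of lost regions 9.95% had another lost region within 100 kb, and 4.85% a gained one. For kept regions the shares were 5.93% for a gained and 7.03% for a lost neighbour. These are descriptions of positions, and neighbouring regions are not independent.

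By chromosome, gained regions made up between 0.199% of all regions, on chromosome 18, and 1.04%, on chromosomes 8 and 14. Lost regions ranged from 0.368% on chromosome 12 to 0.941% on chromosome 3. Chromosome 8 held 34 gained and 15 lost regions, chromosome 18 held 3 gained and 13 lost, and chromosome X held 9 and 8. The remaining chromosomes had between 0.368% and 0.927% gained. Most chromosomes rest on fewer than 30 regions of either kind, so counting error in these shares is large.

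**Figure D2:**
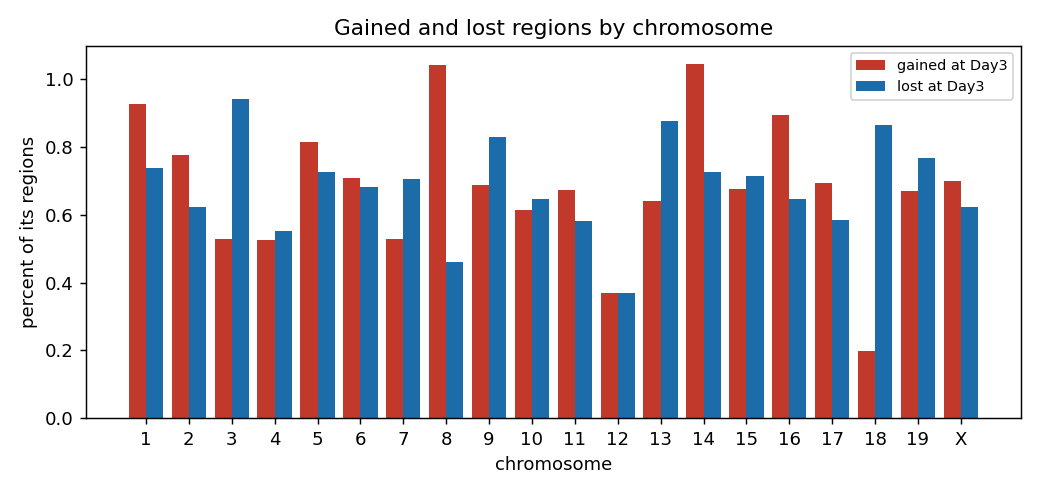
Percent of the regions of each chromosome (vertical axis) that were gained (red bars) or lost (blue bars) at Day3 by the overlap rule, by chromosome (horizontal axis). Bars are counts over all 4 libraries together, with no error. Chromosome 8 stands at 1.04% gained and 0.459% lost, and chromosome 18 at 0.199% gained and 0.864% lost.

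Counted in windows of 1 megabase, 348 of 2313 windows with a region held a gained one and 364 held a lost one, with 83 holding both. No window held more than 4 of a kind. The 2 windows with 4 gained regions were on chromosome 8 from 25000001 to 26000000, with 57 regions in all, and on chromosome 10 from 58000001 to 59000000, with 38. Neither held a lost region. The first in order of 9 windows with 3 was on chromosome 2 from 50000001 to 51000000. Among 6 windows with 3 lost regions, the first in order were on chromosome 5 from 74000001 to 75000000 and on chromosome 6 from 99000001 to 100000000 and from 117000001 to 118000000.

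Kept regions could be compared by strength, since each has a fold in all 4 libraries. The fold of the best peak was put on the log2 scale and centred on the library's median over kept regions. The difference between days, Day3 minus Day0 of the mean of 2 libraries, had an SD of 0.30 over regions. The difference between replicates had an SD of 0.13 at Day0 and 0.14 at Day3, and those are differences of single libraries, which are noisier than differences of means. By size, 70 kept regions differed by 1 or more between days and 0 did between replicates of either day. In 41.8% of kept regions both Day3 values were above both Day0 values, and in 30.3% both were below. A difference of 1 or more (2 times in fold) with no overlap between the days was found in 32 regions in the higher direction (0.0849%) and in 38 in the lower (0.101%). At 1.5 times the counts were 1068 (2.83%) and 1209 (3.21%), while the replicates differed by that much in 0 regions at Day0 and 5 at Day3. Of the calls at 1, all but 1 of the 32 and all of the 38 had separate 95% Poisson intervals, but of those at 1.5 times only 5.99% and 6.04% did. These intervals are of single libraries, and the replicates differed by less than Poisson counting gives. The calls were made on the same values, so separate intervals at the larger limit are no independent support.

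Centring matters for the balance. The shares higher and lower at any size, given above, are of centred values. After centring, the median difference over kept regions was 0.04 on the log2 scale, and uncentred it was -0.16. The calls at 1 were then 8 higher and 292 lower, and those at 1.5 times 189 higher and 3758 lower. Values here are therefore relative to the median kept region of each library.

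**Figure D3:**
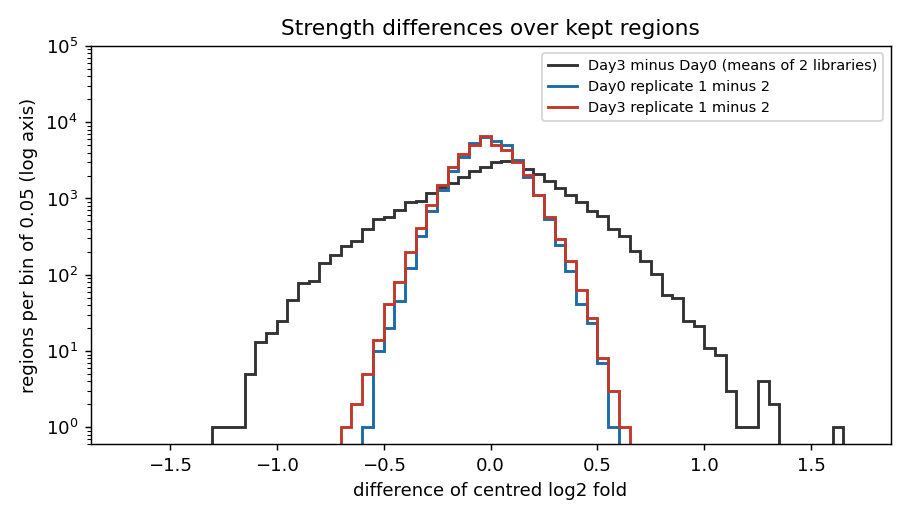
Number of kept regions (vertical log axis, bins of 0.05) by the difference of their centred log2 fold. The black line is Day3 minus Day0 on means of 2 libraries, and the coloured lines are the differences between the 2 replicates of a day. The black line reaches from -1.25 to 1.63, past the replicate lines on either side.

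The largest difference upward was on chromosome 13 from 23596472 to 23597582. Its fold was 17.5 and 19.6 at Day0, then 47.8 and 51.2 at Day3, a centred difference of 1.63. At Day10 the fold was 21.6 and 21.8, at ranks 35682 and 35820, against ranks 48687 and 43228 at Day0. On chromosome 19 from 34584519 to 34585661 the fold went from 18.1 and 20.2 to 37.8 and 45.6 (difference 1.33), and Day10 had 24.9 and 22.8. Both thus had a higher fold at Day3 than at Day0 or Day10, and at Day10 were still above both Day0 folds.

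The next 3 were also above their Day0 fold at Day10. On chromosome 9 from 60218673 to 60219669 the fold was 19.8 and 19.6 at Day0, then 42.3 and 43.4 at Day3 (difference 1.33), and 36.9 and 38.1 at Day10. On chromosome 6 from 125809235 to 125810519 it was 18.1 and 18.5, then 37.8 and 38.4 (difference 1.27), and 25.9 and 31.6 at Day10, with a gained region 5316 bases away. On chromosome 11 from 85651452 to 85652042 it was 18.1 and 19.6, then 38.9 and 39.5 (difference 1.27), and 43.7 and 46.0 at Day10. A gained region lay 5618 bases from it.

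The largest difference downward was on chromosome 14 from 55167295 to 55168132, with folds of 41.9 and 48.5 at Day0, then 16.1 and 16.7 at Day3, a centred difference of -1.25. On chromosome 2 from 19545687 to 19546125 the fold was 37.9 and 40.4, then 14.5 and 15.01 (difference -1.20). On chromosome 6 from 98931289 to 98931938 it was 41.9 and 44.5, then 16.7 and 16.1 (difference -1.19). These regions were among the stronger ones at Day0 and close to the limit of the 50000 strongest at Day3.

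Next in order was a region on chromosome 13 from 63282543 to 63283211, at 39.6 and 38.1, then 15.6 and 15.01 (difference -1.14). The region on chromosome 3 from 88423753 to 88424306 had 43.1 and 35.8, then 16.1 and 15.01 (difference -1.13). Without Day0 replicate 1 this last one missed the limit of 1. All 5 named falls had Day10 folds between 5.58 and 15.8, no higher than their Day3 folds.

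Strong regions had the smallest differences in log2 fold. With kept regions cut into 5 classes by mean strength, the SD of the day difference was 0.15 in the strongest class and 0.40 in the second weakest. The SD between replicates also shrank, from 0.15 and 0.16 in the second weakest class to 0.09 and 0.10 in the strongest. Calls at 1.5 times made up 6.72% (higher) and 8.24% (lower) of the second weakest class, and 0.0796% and 0.0531% of the strongest. In the weakest class they made up 3.69% and 3.04%. Spread within and between days was thus smallest in the same class.

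Peaks were somewhat wider at Day3. In 35309 kept regions every library had just 1 strong peak. The median width of that peak was 608 and 611 bases at Day0 and 663 and 657 at Day3. The median ratio of widths, Day3 over Day0, was 1.05 to 1.07, and between replicates it was 0.997 and 1.005. Both Day3 peaks were wider than both Day0 peaks in 15482 of these regions and narrower in 6718. A difference of 1.5 times or more without overlap was found in 2410 regions in the wider direction (6.83%) and in 788 in the narrower (2.23%). Peaks were also less often split. Several strong peaks lay in 4.15% and 4.05% of kept regions at Day0, and in 1.98% and 2.36% at Day3. Equal numbers of peaks reach down to a lower fold at Day3, and the recovered background was higher there. Their part in the widths was not tested.

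Summits moved little. The median distance between the summits of 2 libraries was 9 bases within each day and 11 bases for all 4 pairs between days. Summits more than 100 bases apart made up 5.13% and 5.48% of these regions within days and 8.58% to 8.73% between days.

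Strength differences were also summarised along the chromosomes, in a comparison added after the calls were seen. The median difference of the kept regions was taken in 1337 windows of 1 megabase with 10 or more of them. These medians had an SD of 0.088 between days, 0.034 between the Day0 libraries and 0.037 between the Day3 libraries. Single regions already differ more between days than between replicates, with SDs of 0.30 against 0.13 and 0.14. The window values therefore do not show that neighbouring regions moved together, which was not tested. A median of 0.2 or more in size was reached by 31 windows upward and 9 downward between days. In all of the 31 and in 8 of the 9 the library medians of the days did not overlap. Over all 1337 windows this held for 480 upward and 425 downward, so it is common. The 31 and 9 were also picked by a large difference between days. The window with the highest median, on chromosome 13 from 62000001 to 63000000, held 12 kept regions. Its library medians were -0.01 and 0.03 at Day0, then 0.48 and 0.43 at Day3.

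**Figure D4:**
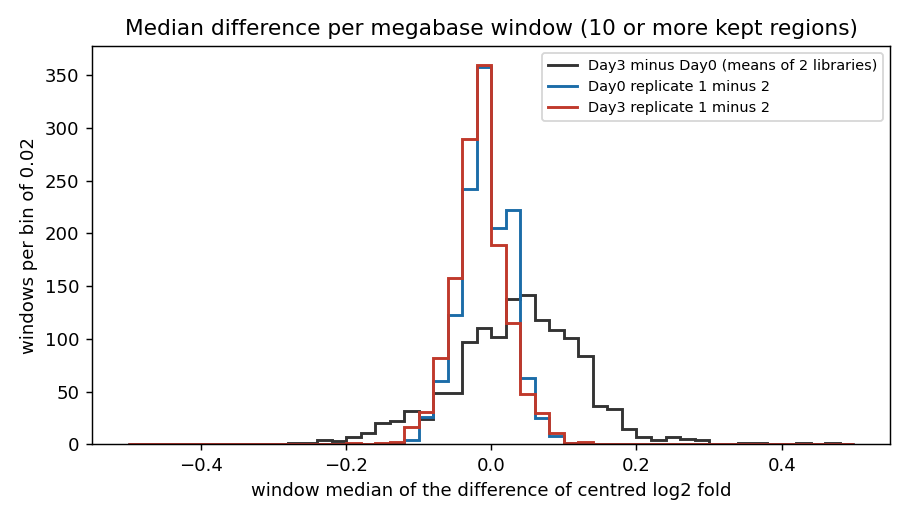
Number of 1 megabase windows (vertical axis, bins of 0.02) by the median difference of centred log2 fold over their kept regions, for 1337 windows with 10 or more kept regions. The black line is Day3 minus Day0 and the coloured lines are differences between replicates. Between days, medians reach from -0.27 to 0.46, and between replicates, whose single regions also spread less, they stay between -0.19 and 0.14.

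Of the 40 windows past 0.2, the only ones that adjoin each other form a block of 3 on chromosome 13, from 21000001 to 24000000. The block was chosen by its Day3 minus Day0 values, so the shares and levels below describe it and support nothing. Mouse chromosome 13 is known to carry the largest cluster of histone genes, which are transcribed mainly while cells copy their DNA. Which genes the block holds was not determined here. It held 160 regions, of which 94 were kept, 3 gained and 0 lost (0.705% gained and 0.68% lost over all regions). Of its kept regions 87 (92.6%) had a difference above 0 (57.1% over all kept regions). Both Day3 values were above both Day0 values in 78 (83.0%, and 41.8% over all kept regions). They were below them in 2 (30.3% over all kept regions). At 1.5 times 17 were higher (18.1%, and 2.83% over all kept regions) and 0 were lower (3.21% over all kept regions).

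The median fold of the kept regions in the block was 28.0 and 27.7 at Day0, then 33.6 and 34.5 at Day3. Relative to the library medians, the block stood at -0.22 and -0.25 on the log2 scale at Day0, at 0.25 and 0.28 at Day3, and at -0.04 in both Day10 libraries. The block was thus below the typical kept region at Day0, above it at Day3 and close to it at Day10. The median difference of its single regions was 0.28, less than the step from Day0 to Day3 in its library medians. Uncentred, that median difference was 0.07, while that of all kept regions was -0.16. Regions near 21356410 (folds of 21.6 and 23.7, then 43.4 and 41.7) and 21417784 (25.6 and 27.2, then 48.9 and 47.3) had the next largest differences after the one at 23596472.

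**Figure D5:**
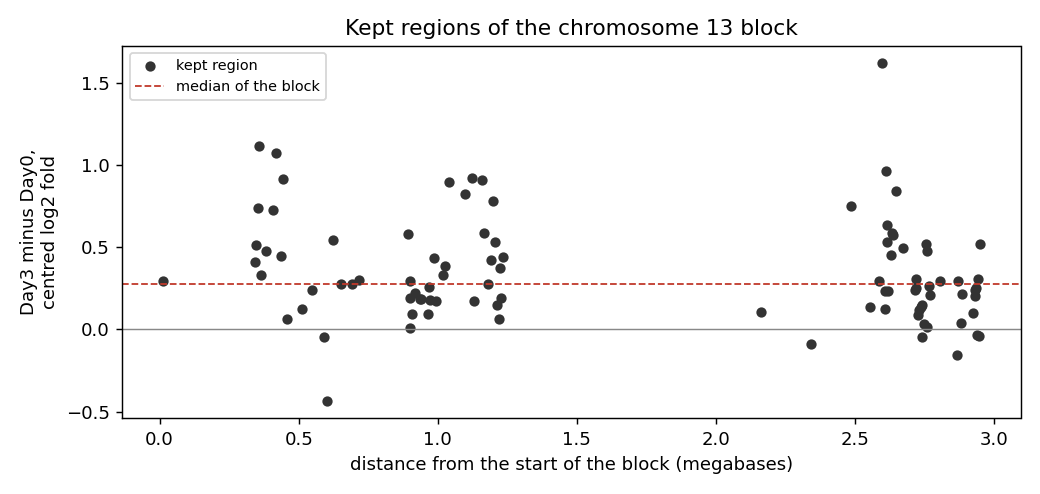
Day3 minus Day0 difference of centred log2 fold (vertical axis) for the 94 kept regions of the chromosome 13 block, by distance from the start of the block in megabases. Points are regions, the grey line marks 0 and the dashed line the block's median of 0.28. All but 7 points lie above 0.

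The Day10 libraries give the later state of these regions. Of the 427 gained regions 292 (68.4%) were among the 50000 strongest in both Day10 libraries, 21 were out of the 100000 strongest in both and 114 lay between. Of the 412 lost regions 352 (85.4%) were out at Day10 and 13 were strong again. For comparison, 76.3% of the kept regions were in at Day10 and 5.31% were out, so gained regions were in somewhat less often than kept ones. Gained regions were also weaker at Day3, with a median pileup of 30 in both libraries against 50 for kept regions. The part of that in the difference was not tested. Kept regions higher by 1.5 times at Day3 had median centred values of -0.68 and -0.66 at Day0. Their medians were 0.06 in either Day3 library, then -0.05 and -0.08 at Day10. Those lower by 1.5 times had 0.10 and 0.12, then -0.63 in both, then -0.92 and -0.95 where listed. These sets were chosen by their Day3 and Day0 values, so those are extreme by the rule. The Day10 lists are also longer, and their recovered background was higher, at 1.08 and 1.15.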

How the data were processed

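ATAC-seq peak lists of 6 libraries were used, 2 per day, of which the 4 of Day0 and Day3 form the comparison. Reads were 75 bases and single-end, per the labels. Peaks were listed for each library alone by the authors. Trim Galore and mm10 are named in the submitters' processing notes, but scaffold names in the lists belong to GRCm39. Which aligner and peak caller were used, and whether reads were shifted for Tn5, is not given in the sources used here. The fold ratio (column 7), the -log10 p and -log10 q, and the integer score are the authors' deposited values, and the summit offset is theirs too.

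Peaks on chromosomes 1 to 19 and X were ordered by fold, then -log10 q, then position. Pileups were recovered from the fold steps as (pileup + 1) / (background + 1), and 100% were whole within 0.01. Work was done with Python 3.11.15, numpy 2.4.6, scipy 1.17.1 and pandas 2.3.3. On simulated lists the rules recovered 200 of 200 planted changes each, for gained and lost regions among 54555. The same held for kept regions higher or lower by 1 or more among 45507. This checks only that the rules were carried out as written. The planted changes were set by design, so their recovery does not measure how many moderate changes in the real lists were found. Named are the 10 gained and 10 lost regions with the best poorer rank, the 5 largest called differences each way among kept regions, and 3 windows of each kind. Single regions and windows of chromosome 18 are not named, and 0 of them would have come before the last named one of any kind. The region rules, gene lists and alternatives were chosen with earlier results of these data known. Gene lists, markers, promoters and motifs were not analysed here, since no annotation or genome of this build was used. Alternatives varied the ranks, overlap, merging, order, centring, thresholds and libraries. The window medians, peak widths and Poisson intervals, and the alternatives for windows and for the counts at 1.5 times, were chosen after seeing the data.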

Additional observations from a re-analysis of the deposited data

How the results depend on the processing

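Counts of gained and lost regions follow the limits that define them. With 25000 in and 50000 out they were 164 and 242, with 75000 in and 150000 out 1125 and 1002, without a gap 6390 and 6091, and with no listed peak allowed 77 and 30, so more were lost than gained in the first of these and fewer in the other 3. With equal fold limits there were 342 gained and 1296 lost. Of the 20 named gained and lost regions, 18 are not called when no listed peak is allowed. Overlap of 50% of the shorter interval, no merging, order by -log10 q and leaving out regions over 2000 bases kept both counts within 1.5 times. Leaving out 1 library, which drops a condition, gave 549 to 634 gained and 582 to 602 lost. Of kept regions, 2710 were higher and 3274 lower by 1 or more on the log2 of the rank, an unlike measure of change. On the log2 fold, those higher or lower by 1 or more numbered 8 and 292 uncentred, and 1068 and 1209 at 1.5 times. Leaving out 1 library gave 32 to 47 higher and 48 to 64 lower, the last without Day3 replicate 1, and 59 without Day3 replicate 2. At 1.5 times, uncentred counts were 189 and 3758, and leaving out 1 library gave 1126 to 1268 and 1390 to 1545. The mean Jaccard index was 0.828 within and 0.657 between days. It was 0.805 and 0.630 for 25000 peaks, 0.797 and 0.625 for all listed peaks, and between days 0.661 for 100000. Without a gap, 2723 gained regions were in and 5109 lost regions were out at Day10, and leaving out 1 Day10 library gave 300 to 307 and 356 to 360. Window medians kept an SD of 0.076 to 0.102 with 20 or 5 kept regions asked for. No paired analysis was possible because the region counts come from no test, and the exact test on the Jaccard index asks only how libraries pair by day. Replicate differences of the days correlated at 0.01 over kept regions, which gives no sign of pairing by replicate number. These differences are very small, so whether the libraries were handled in pairs cannot be told from them. Region features other than width, and gene lists, were not run for want of an annotation or genome of this build. Depth limits weak regions most, where a list starts at a pileup of 5.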

Other observations

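The lowest window median between days was on chromosome 14 from 36000001 to 37000000, where the 13 kept regions had library medians of -0.05 in both Day0 libraries and of -0.28 and -0.35 at Day3. Chromosome 6 held 2 of the 5 lowest windows, from 140000001 to 141000000 and from 144000001 to 145000000. The first went from 0.17 and 0.23 at Day0 to -0.12 in both Day3 libraries over 26 kept regions, and the second from 0.22 and 0.28 to -0.12 and -0.18 over 23. No region was gained or lost in either of them. On chromosome 9 the window from 3000001 to 4000000, at the start of the assembled sequence, held 28 kept regions whose medians were -0.56 and -0.62 at Day0 and -0.20 and -0.18 at Day3, so it stayed below the typical region on both days.

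Among single-peak kept regions, chosen after their values were seen, the largest widening was on chromosome 19 from 44743922 to 44746065. The strong peak there spanned 335 and 399 bases at Day0 and 2087 and 2004 at Day3, while the fold was 18.1 and 24.3, then 22.8 and 24.5. The 2 largest narrowings were neighbours on chromosome 7, from 19034402 to 19037149 and from 19037502 to 19039952. The first peak spanned 2010 and 2744 bases at Day0 and 242 and 229 at Day3, with folds of 22.7 and 19.6, then 22.8 and 21.7. In these the width of the listed peak moved far more than its fold. Regions on chromosome 2 from 5299242 to 5299647 and on chromosome 13 from 120774138 to 120774654 had no listed Day0 peak. Their pileups at Day3 were 41 and 42 and 40 in both libraries, and their Day10 folds were 34.1 and 33.0, and 23.0 and 20.9.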
